A study of Salmo salar with 79 samples.

Results

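Transcription of cytoskeletal and myofiber genes was followed in the skin of Atlantic salmon (Salmo salar) through the healing of punch biopsy wounds. The members are 37 of the 14841 gene probes on a salmon oligonucleotide microarray. They were taken from the study's supplementary list of 771 probes that responded to fish density, as those it assigned to cell cytoskeleton (24 probes), microtubules (4) or myofiber (9), with keratins and periplakin left out. Coronin-1A, gelsolin and thymosin beta-a each had 2 probes, marked (a) and (b). The study chose the list on the difference between densities in these same fish, so that difference is given here as a description without a test. The change from intact to wounded skin, averaged over both densities, did not enter the choice and was tested.

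The fish were post-smolts in seawater stocked at high fish density (HFD, 100 kg/m3) or at the control density (20 kg/m3). The paper reports that biomass was not adjusted afterwards. It rose over time in the HFD tank, while density fell in the control tank. Both groups were wounded with a skin punch. Wounds were collected from 5 fish per density on each of 7 days after wounding (dpw), early on at 1, 3, 7 and 14 dpw and later at 36, 43 and also 57 dpw. Intact skin (0 dpw) came from 4 fish per density. In all, 79 arrays of 78 fish were used, since 1 control fish at 57 dpw had a repeat array. Each density was one tank, so tank and density cannot be told apart, and fish of one tank are the replicates. A sample was skin with part of the wound, a mixture of tissues in which fewer cells of a type and less RNA per cell cannot be told apart.

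The cytoskeleton is built of actin filaments, microtubules, intermediate filaments and septins. Actin drives the crawling of leukocytes into a wound and of keratinocytes across it, microtubules carry cargo and form the spindle of dividing cells, and in muscle actin and myosin are ordered into sarcomeres. In fish skin, scales and dermis lie over the muscle, so that a deep wound reaches contractile tissue. The roles given for single genes are known mostly from mammals. The members were grouped by role into actin regulators of blood cells (4 probes), actin assembly (8), linkers (5), septins (2), microtubules (8) and muscle (10).

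Levels are log2 of the processed signal of a spot minus the log2 of the 75th percentile of its array, so that 0 is a bright probe and a difference of 1 is a 2-fold change. The share of probes flagged by the scanner software as above background was 60.1% to 94.5% per array, the 75th percentile ran from 254 to 1066 and 0 spots were saturated. Of the members, 33 were well above background in every fish and the dimmest was so in 73 of 78 fish. The 8 epidermis marker probes (keratins, periplakin and E-cadherin) averaged between 0.49 and 3.23 in all fish but control fish 1 at 43 dpw, at -2.35. Arrays of 0 to 14 dpw were scanned on 6 slides and those of 36 to 57 dpw on 4 others, so late wounds and intact skin cannot be told apart from scan campaign and were not tested against each other. HFD and control shared 0 slides at 0 dpw, where slide and density cannot be told apart, and 1 slide at each of 1, 3, 7 and 14 dpw. That slide held 1 HFD and 1 control fish. With slide as a fixed block, HFD minus control at these days is therefore the difference within that pair of fish.

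A member was called when the limma test, fitted over all fish, gave a Benjamini-Hochberg adjusted p under 0.05 over all probes and a log2 fold change (log2FC) beyond 0.8. At 1 dpw 24 of 37 members were called against intact skin, 14 higher and 10 lower, while 28.9% of all probes were called (11.7% higher and 17.2% lower). At 3 dpw 26 were called, 14 higher and 12 lower, against 37.9% of all probes (14.3% higher, 23.6% lower). At 7 dpw 17 were called, 9 higher and 8 lower, against 31.0% (11.2% higher, 19.8% lower), and at 14 dpw 17 were called, 11 higher and 6 lower, against 29.2% (10.6% higher, 18.5% lower). Members moved in both directions at each of these days, and their share called was above that of all probes. The members come from a list chosen for a difference between densities, which all probes were not. That excess can therefore not be ascribed to their role.

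The median log2FC of the members was -0.11, 0.16, 0.14 and 0.08 at 1, 3, 7 and 14 dpw, and that of all probes was -0.25, -0.23, -0.17 and -0.15. The median size of the change, without its sign, was 1.096, 1.14, 0.95 and 0.82 for the members and 0.51, 0.63, 0.53 and 0.50 for all probes. How the calls split by direction depended on the scaling. In the authors' scaled table, where the median of all probes was 0.01, 0.21, 0.43 and 0.38, members split into 15 higher and 6 lower, 18 and 7, 18 and 5, and 13 and 5 at these days. With a normexp background correction, with all-probe medians of -0.27, -0.47, -0.53 and -0.33, the split at 14 dpw was 6 higher and 6 lower. Of the calls over all probes, 40.6%, 37.8%, 36.0% and 36.5% were higher, against 63.7%, 69.8%, 81.9% and 78.2% in the authors' scaled table, 49.1%, 28.0%, 16.3% and 31.9% with normexp, and 49.7%, 48.6%, 49.4% and 49.9% after quantile normalization. None of the members called changed sign under any of these scalings.

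Over these 4 days, 7 members were called higher at each and 3 lower at each, and 5 were not called at any. Calls at all 4 days or at none were not counted over all probes, so these counts have no share to be read against. Those always higher were both coronin-1A probes, pleckstrin, myosin-Ig, septin-8, tropomodulin-3 and tubulin beta-2C. With normexp 3 of these 7, both coronin-1A probes and tropomodulin-3, were still called at all 4 days. Those always lower were MuRF1c, myomesin 2 and unc-45B, all of muscle, of which only MuRF1c was called at all 4 days in the authors' scaled table. Maskin and tubulin alpha-1A were called in both directions, lower early and higher at 14 dpw, and calls of both were lost in some alternatives, given below. Moesin, phactr3, both thymosin beta-a probes and tubulin alpha 8 like 2 were never called. All wounded fish with a value lay above all intact ones for 10, 7, 5 and 5 members at 1, 3, 7 and 14 dpw (8.74%, 11.1%, 8.82% and 8.38% of all probes). They lay below for 2, 5, 4 and 4 members (7.95%, 13.4%, 12.4% and 9.02%). Pleckstrin at 3 dpw had a value in 9 of 10 wounded fish, whereas the shares of all probes cover only probes with a value in every fish.

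**Figure D1:**
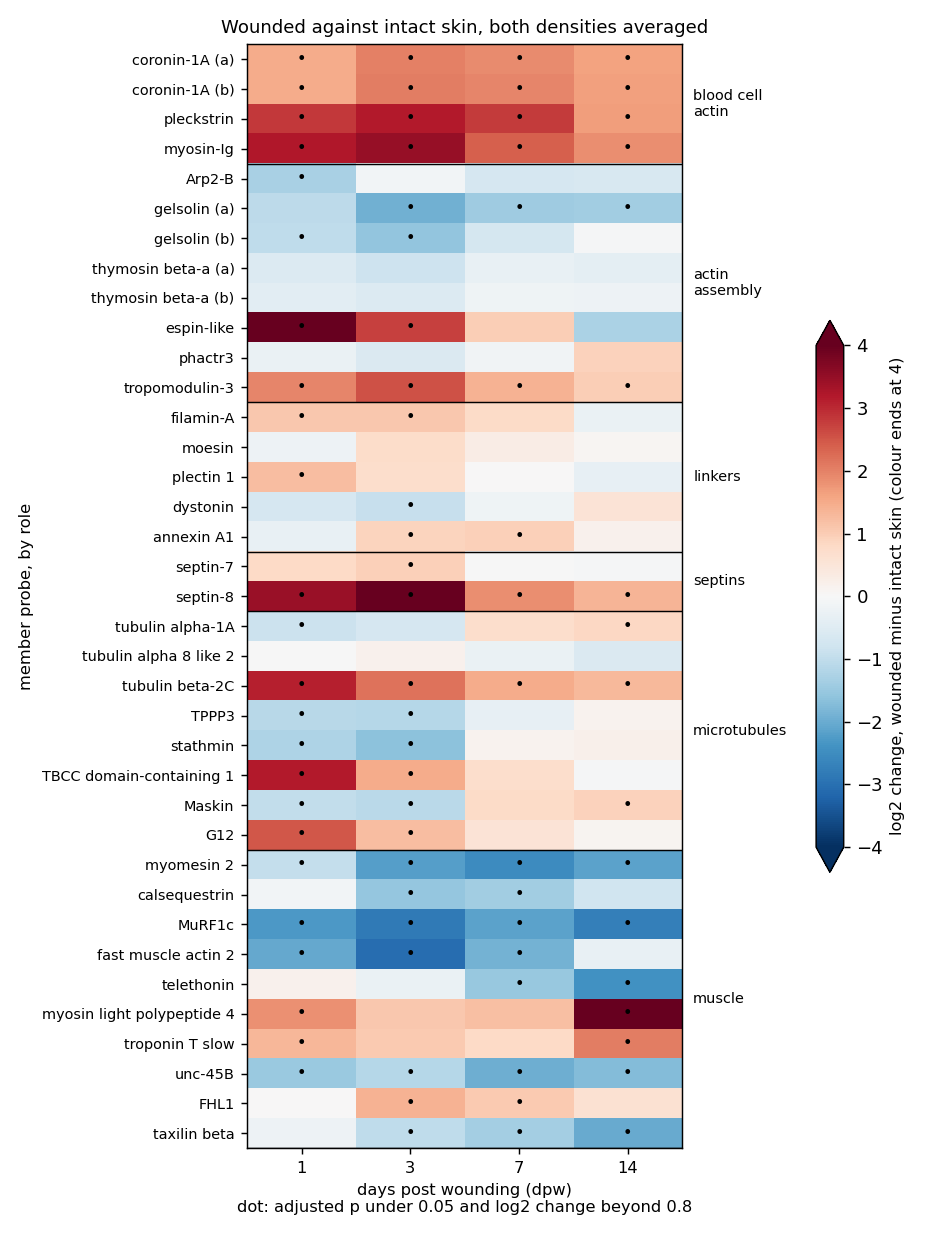
Heat map of the log2 fold change of each of the 37 members (down the page, grouped by role) against intact skin at 1, 3, 7 and 14 dpw, averaged over both densities; a dot marks a call. The actin regulators of blood cells were higher at every day, and 7 of the 10 muscle members were called lower at 7 dpw, when FHL1 was called higher.

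The 4 probes of actin regulators of blood cells were all called higher than in intact skin at 1, 3, 7 and 14 dpw. Coronin-1A is an actin-binding protein of leukocytes, pleckstrin is a protein kinase C substrate of platelets and leukocytes, and myosin-Ig is a membrane-linked motor of blood cells. The level of myosin-Ig had a lowest, median and highest value of -1.82, -0.51 and 0.20 in the 10 fish at 3 dpw, against -4.73, -4.33 and -3.21 in the 8 fish with intact skin. All 10 fish at 3 dpw lay above all 8 intact ones, and the log2FC was 3.49 (SE 0.21, adjusted p = 6.8e-23). At 7 dpw its values were -2.59, -1.94 and -0.92 (log2FC 2.38, adjusted p = 2.5e-15), still clear of intact skin.

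Pleckstrin had values of -1.31, -0.78 and 0.36 at 7 dpw, against -3.86, -3.54 and -2.88 in intact skin (log2FC 2.78, adjusted p = 5.4e-16). The groups did not overlap at 1, 3, 7 or 14 dpw, and the change was 2.82 at 1 dpw, 3.18 at 3 dpw (SE 0.24) and 1.66 at 14 dpw. The coronin-1A probes rose less, by 1.47 each at 1 dpw, 2.00 and 2.05 at 3 dpw, 1.88 and 1.97 at 7 dpw, and 1.61 and 1.64 at 14 dpw. The level of probe (b) was 1.60, 2.51 and 3.50 at 3 dpw, against 0.08, 0.59 and 0.92 in intact skin. All 4 probes had values below 0 for 7 against 3 dpw and for 14 against 7 dpw, of which myosin-Ig was called at the first step (log2FC -1.11) and pleckstrin at the second (log2FC -1.12, and -0.79 without a call with normexp). With normexp the rise against intact skin was also no longer called for myosin-Ig at 7 and 14 dpw (log2FC 0.77 and 0.56) and for pleckstrin at 14 dpw (log2FC 0.62), whereas the coronin-1A calls held.

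The phagocyte markers, 9 probes of NADPH oxidase subunits, rac2, integrin beta-2 and myeloperoxidase, were mostly higher too. At 1, 3, 7 and 14 dpw, 8, 7, 8 and 8 of the 9 were called higher and none lower. The oxidase subunit p22phox, with a log2FC of 0.25, -0.93, -0.96 and -0.73, was not called at any of these days. At 3 dpw rac2 was not called either, with a change from intact skin of 1.315 in HFD and 0.268 in control. The mean level over the 9 probes was -2.05 to -1.20 in intact HFD skin and -1.40 to -0.999 in intact control skin, and 1.36 to 1.99 in HFD wounds and 0.32 to 0.73 in control wounds at 3 dpw. All 3 hemoglobin probes were called higher at each of these days. The part of phagocyte and blood RNA in the rise of the actin regulators was not tested.

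**Figure D2:**
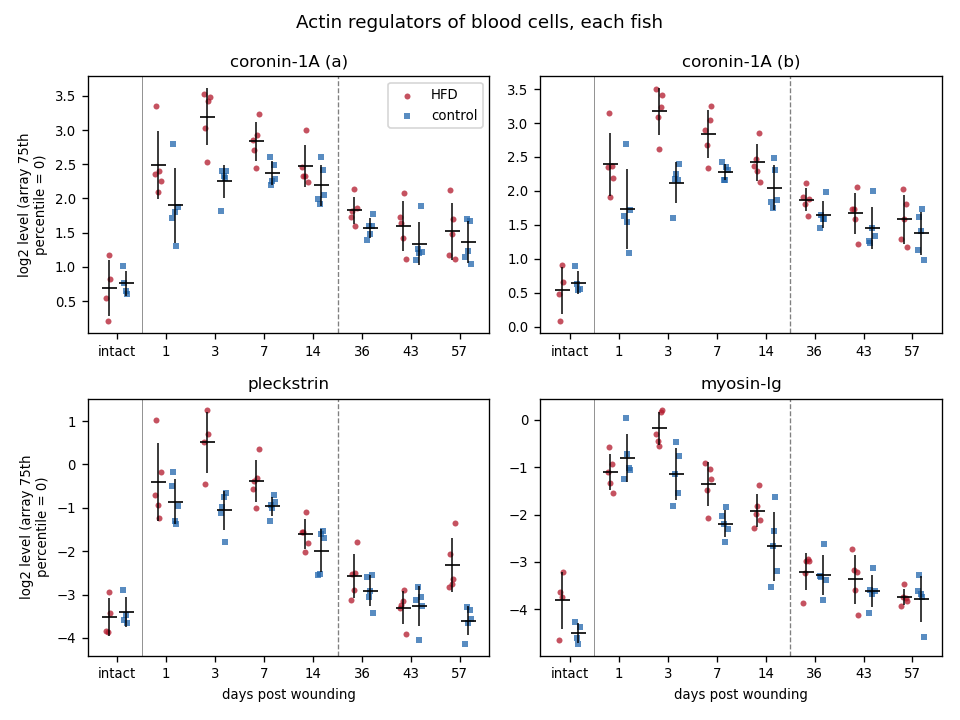
Levels of both coronin-1A probes, pleckstrin and myosin-Ig (log2 relative to the 75th percentile of the array) in each fish by day, HFD as circles on the left and control as squares on the right of each day, with mean and SD as bars. All 4 panels rise between intact skin and 1 dpw, and at 3 dpw the HFD fish sit above the control fish in both coronin-1A panels.

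Septins form filaments and rings on the membrane in dividing and migrating cells. Septin-8 rose to values of -1.57, -0.28 and 0.84 at 1 dpw, against -4.38, -3.99 and -2.69 in intact skin (log2FC 3.46, SE 0.30, adjusted p = 1.9e-15). At 3 dpw it reached -1.09, 0.36 and 1.33 (log2FC 4.01, SE 0.30, adjusted p = 2.9e-18), which was the largest rise of a member at that day. It stood at 1.86 above intact skin at 7 dpw and 1.37 at 14 dpw (0.57 and 0.39 with normexp, neither called), and the fall from 3 to 7 dpw was called (log2FC -2.15). Septin-7 was called at 3 dpw, where it was higher by 0.94 (0.61 and no call with normexp), and from 3 to 7 dpw it fell by 0.95 (-0.77 and no call in the authors' scaled table).

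Members of actin assembly went in different directions. Espin bundles actin filaments, and the espin-like probe had values of -0.81, 3.48 and 4.42 at 1 dpw, against -3.86, -2.89 and 0.98 in intact skin. The log2FC of 4.95 (SE 0.66, adjusted p = 2.5e-09) was the largest of any member at any of the 4 days, although 2 of the 10 wounded fish lay within the range of intact skin. It fell by 2.23 from 1 to 3 dpw, by 1.75 from 3 to 7 dpw and by 2.24 from 7 to 14 dpw, and was no longer called against intact skin at 7 dpw (log2FC 0.97) and 14 dpw (log2FC -1.26). These values average unlike responses of the densities. The change from intact skin was 1.54, -1.21 and -2.38 in HFD at 3, 7 and 14 dpw, against 3.91, 3.15 and -0.15 in control. In intact skin the espin-like level was 2.10 higher in HFD. The call from 3 to 7 dpw was lost without any one of 7 of the 20 fish, with slide as a block (adjusted p = 0.0505) and in a fit of these days alone (adjusted p = 0.065), and that from 7 to 14 dpw with normexp (adjusted p = 0.057).

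Tropomodulin-3, which caps the slow-growing end of actin filaments, rose at each day. Its level was 2.01, 3.28 and 3.61 at 3 dpw, against 0.41, 0.49 and 0.74 in intact skin (log2FC 2.56), and all wounded fish were above all intact fish at 1, 3, 7 and 14 dpw. The gelsolins, which sever and cap filaments, fell. Gelsolin (a) had values of -0.80, -0.17 and 1.15 at 3 dpw, against 1.16, 1.81 and 2.56 in intact skin, with no overlap, and its log2FC was -1.93, -1.42 and -1.40 at 3, 7 and 14 dpw. Its value at 7 dpw averages a change of -2.50 in HFD and -0.33 in control. In the authors' scaled table the calls at 7 dpw (log2FC -0.77, adjusted p = 0.16) and 14 dpw (log2FC -0.85, adjusted p = 0.12) were lost. Gelsolin (b) was called lower at 1 and 3 dpw (log2FC -1.03 and -1.57, the first at -0.75 and without a call in the authors' scaled table) but not at 7 dpw (-0.69) or 14 dpw (-0.06). Arp2-B, a subunit of the complex that branches actin, fell at 1 dpw (log2FC -1.29) and rose again from 1 to 3 dpw (log2FC 1.19). The thymosins, which bind actin monomers, stayed high in all fish of 0 to 14 dpw, between 2.61 and 6.72, and neither probe was called.

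Phactr3, named as a phosphatase and actin regulator, was not called at any day, and its fish fell into separate levels. Among the 48 fish of 0 to 14 dpw, 31 had levels from -1.28 to 0.61 and 17 from -5.30 to -3.26, with a gap of 1.98 between them. The widest such gap of any other member, with at least 5 fish on each side, was 1.01 in the espin-like probe. The lower level held 7 HFD and 10 control fish and the upper level 17 HFD and 14 control fish, and both levels occurred in both densities at every one of these days.

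The linkers tie actin or intermediate filaments to membranes and junctions. Filamin-A, which crosslinks actin, rose at 1 and 3 dpw (log2FC 1.07 and 1.08) and fell by 1.01 from 7 to 14 dpw. Plectin 1, a linker of intermediate filaments, was called higher at 1 dpw, with values of 0.70, 1.19 and 1.80 against -0.85, -0.04 and 0.67 in intact skin (log2FC 1.24), and not at 3 dpw (log2FC 0.70). Annexin A1, a calcium-dependent membrane-binding protein, was called higher at 3 and 7 dpw (log2FC 0.88 and 0.95) and rose by 1.16 from 1 to 3 dpw. Its call at 3 dpw was lost when slide was a block (adjusted p = 0.079) and without any one of 11 of the 18 fish, and its call at 7 dpw with slide as a block (adjusted p = 0.051) and without any one of 3 fish. Dystonin, a plakin of the hemidesmosome, was lower at 3 dpw (log2FC -0.92) and was not called in the authors' scaled table (log2FC -0.45, adjusted p = 0.29). Moesin, which links actin to the plasma membrane, was not called against intact skin but rose by 0.93 from 1 to 3 dpw (0.67 and no call with normexp).

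Of the 8 microtubule members, 3 were called higher and 4 lower at 1 dpw, 3 and 3 at 3 dpw, 1 and 0 at 7 dpw, and 3 and 0 at 14 dpw. Tubulin beta-2C had values of -0.89, 0.03 and 1.58 at 1 dpw, against -3.66, -3.25 and -1.96 in intact skin (log2FC 3.12), and was 1.49 above at 7 dpw and 1.31 at 14 dpw (0.58 and 0.53 with normexp, neither called). TBCC domain-containing 1, which shares a domain with a tubulin folding cofactor, rose by 3.17 at 1 dpw and 1.48 at 3 dpw, and G12, a gastrulation protein by name, by 2.48 and 1.23. Neither TBCC domain-containing 1 (log2FC 0.72) nor G12 (log2FC 0.54) was called at 7 dpw. The change of TBCC domain-containing 1 from intact skin was 0.72 and -0.25 in HFD at 3 and 7 dpw, against 2.24 and 1.69 in control. In intact skin its level was 1.05 higher in HFD, and 0.70 higher without HFD fish 3.

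Stathmin and Maskin had their lowest levels in the first days. Stathmin binds tubulin dimers, and Maskin is a frog name for a spindle protein of the TACC family. Stathmin had values of -1.10, -0.30 and 0.55 at 3 dpw, against -0.05, 1.63 and 2.03 in intact skin (log2FC -1.64), and 1.12, 1.51 and 2.01 at 7 dpw. Maskin had values of -1.57, -0.32 and 0.35 at 3 dpw, against 0.18, 0.57 and 1.31 in intact skin (log2FC -1.07), and 1.02, 1.38 and 2.10 at 7 dpw. For both genes every fish at 7 dpw lay above every fish at 3 dpw, and the rise was 1.78 for stathmin and 1.84 for Maskin (SE 0.16 and adjusted p = 8.3e-15 for each), while 8.88% of all probes and 12 of 37 members were called between these days, 6 members higher (5.55% of all probes) and 6 lower (3.34%).

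Tubulin alpha-1A, a main alpha-tubulin, and TPPP3, which promotes tubulin polymerization, also rose from 3 to 7 dpw, by 1.39 and 0.81. TPPP3 had been lower than in intact skin at 1 and 3 dpw (log2FC -1.10 and -1.14). Tubulin alpha 8 like 2, another alpha-tubulin, lay between 4.65 and 6.40 in every fish of 0 to 14 dpw. KIF4A, a mitotic kinesin that is no member, rose by 1.90 from 3 to 7 dpw. It belongs to 14 other cytoskeletal probes set beside the members. These include integrin beta-1 and beta-3 and the second probes of myosin-Ig, taxilin beta and annexin A1, so they are not all of other genes. Of these 14, 2 were called higher and 3 lower from 3 to 7 dpw. At 14 dpw Maskin and tubulin alpha-1A were 0.92 and 0.82 above intact skin, both called, and stathmin was 0.21 above, not called. That call of tubulin alpha-1A was lost without any one of 4 of the 18 fish, and its call at 1 dpw without any one of 2. The calls of Maskin at 1 and 3 dpw and of TPPP3 at 3 dpw were lost in the authors' scaled table (log2FC -0.69, -0.59 and -0.65), and that of TPPP3 from 3 to 7 dpw with normexp (log2FC 0.78). The call of tubulin alpha-1A at 1 dpw (log2FC -0.85) was lost in the authors' scaled table and after quantile normalization, where the log2FC was -0.59 and -0.79.

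**Figure D3:**
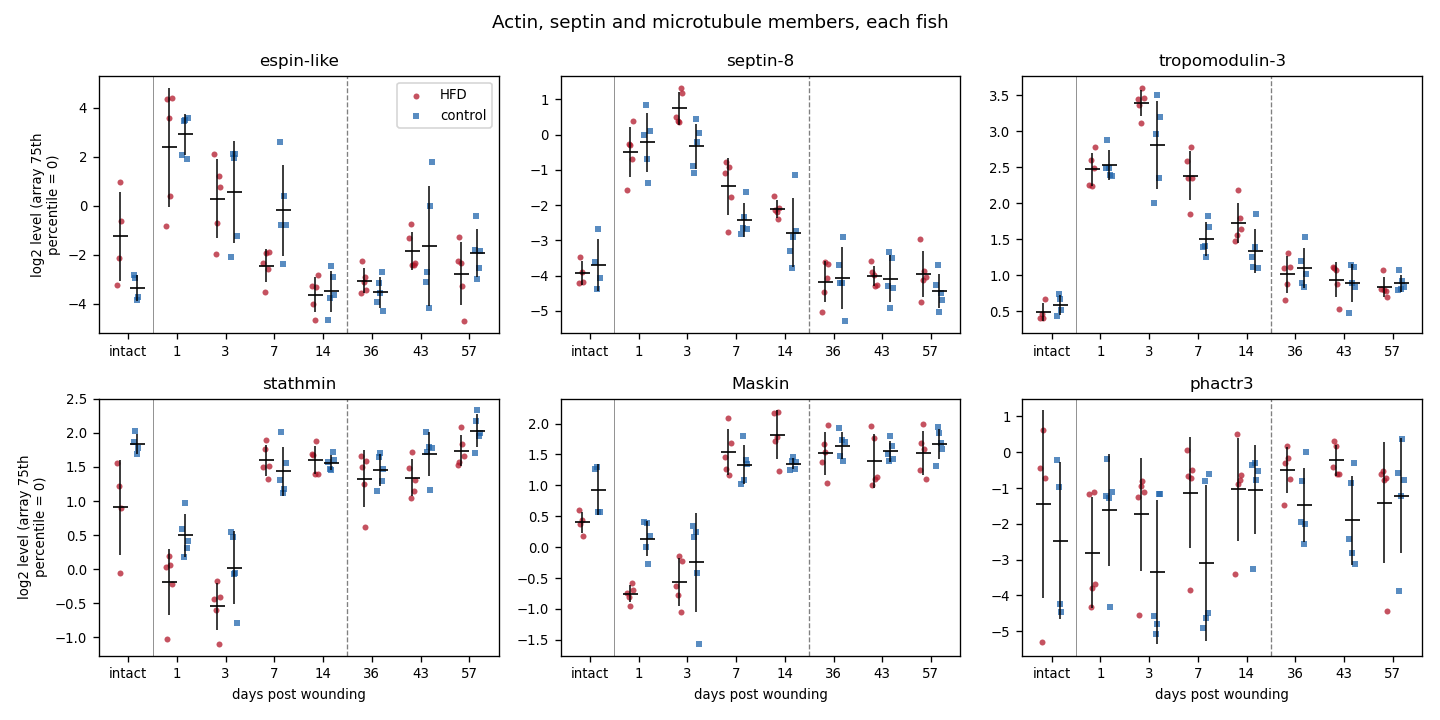
Levels of espin-like, septin-8, tropomodulin-3, stathmin, Maskin and phactr3 (log2 relative to the 75th percentile of the array) in each fish by day, HFD as circles on the left and control as squares on the right, with mean and SD as bars. Espin-like and septin-8 peak at 1 and 3 dpw, stathmin and Maskin dip at these days, and phactr3 splits into separate levels.

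The 10 muscle members did not move as one. At 1, 3, 7 and 14 dpw 4, 6, 7 and 5 of them were called lower and 2, 1, 1 and 2 higher. MuRF1c, a ubiquitin ligase of muscle, had values of 0.04, 0.94 and 2.03 at 3 dpw, against 2.80, 3.56 and 6.59 in intact skin, and every wounded fish of 3, 7 and 14 dpw lay below every intact one. Its log2FC was -2.30 at 1 dpw (SE 0.39, adjusted p = 7.8e-07), -2.83 at 3 dpw (adjusted p = 3.7e-09), -2.14 at 7 dpw (adjusted p = 3.3e-06) and -2.72 at 14 dpw (adjusted p = 2e-08).

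Fast muscle actin 2, of the thin filament, fell and came back. It had values of -0.16, 2.00 and 4.91 at 1 dpw (log2FC -2.03, SE 0.46, adjusted p = 0.00016) and 0.19, 1.29 and 2.37 at 3 dpw (log2FC -3.06, adjusted p = 4.8e-08), against 3.97, 4.21 and 5.05 in intact skin. It rose by 1.19 from 3 to 7 dpw and by 1.58 from 7 to 14 dpw. The first of these calls was lost without any one of 10 of the 20 fish and with slide as a block (log2FC 1.00, adjusted p = 0.087). At 14 dpw its values of 1.82, 4.06 and 5.82 spanned those of intact skin (log2FC -0.30, adjusted p = 0.61).

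Myomesin 2, which holds thick filaments at the M-band, had values of -4.16, -1.89 and -0.71 at 7 dpw, against -0.19, 0.60 and 0.85 in intact skin (log2FC -2.51, adjusted p = 2.3e-08). Unc-45B, a chaperone of myosin, was lower at all 4 days (log2FC -1.49, -1.13, -1.95 and -1.74). Calsequestrin, the calcium store of the sarcoplasmic reticulum, was lower at 3 dpw (log2FC -1.54) and 7 dpw (log2FC -1.40). In the authors' scaled table the calls of unc-45B at 3 dpw (log2FC -0.65, adjusted p = 0.059), myomesin 2 at 1 dpw (log2FC -0.68, adjusted p = 0.062) and calsequestrin at 7 dpw (log2FC -0.76, adjusted p = 0.091) were lost, and that of myomesin 2 at 1 dpw was also lost with normexp (log2FC -0.78).

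Telethonin, which caps titin at the Z-disc, was at its intact level at first (log2FC 0.19 and -0.25 at 1 and 3 dpw, not called) and fell later. At 14 dpw it had values of -2.37, -1.71 and -1.12, against -0.47, 0.42 and 3.17 in intact skin, without overlap (log2FC -2.43, adjusted p = 1.3e-06). Taxilin beta, by its other name a muscle-derived protein, fell by 1.01, 1.36 and 2.00 at 3, 7 and 14 dpw, and the first 2 of these calls were lost in the authors' scaled table (log2FC -0.53 and -0.71). A second taxilin beta probe outside the member list was lower at 3 dpw (log2FC -1.63) but higher at 14 dpw (log2FC 2.86), so the 2 probes named for this gene disagreed. FHL1, a LIM-domain protein of muscle, went the other way and was higher at 3 and 7 dpw (log2FC 1.39 and 1.03).

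Myosin light polypeptide 4 and slow troponin T, proteins of the thick and of the thin filament, were low in intact skin and rose by 14 dpw. Myosin light polypeptide 4 had values of -1.41, 0.59 and 1.47 at 14 dpw, against -7.02, -4.59 and -1.69 in intact skin, where it was well above background in 6 of 8 fish, and every fish at 14 dpw was above every intact fish. Its log2FC was 4.89 (adjusted p = 3.4e-08), and the rise from 7 to 14 dpw was 3.69 (SE 0.67, adjusted p = 0.0001), when 5 of 37 members and 2.83% of all probes were called, 2 members higher (1.76% of all probes) and 3 lower (1.07%). Slow troponin T had values of -2.50, -1.30 and -0.08 at 14 dpw, against -4.59, -3.60 and -0.77 in intact skin (log2FC 2.04, adjusted p = 0.0018). With normexp the rise of slow troponin T at 14 dpw was 0.92 and not called (adjusted p = 0.063).

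Both were also called at 1 dpw (log2FC 1.84, adjusted p = 0.024, and log2FC 1.34, adjusted p = 0.04), and neither call held with normexp (adjusted p = 0.38 and 0.34) or when only the fish of these days were fitted (adjusted p = 0.058 and 0.079). Of the 4 other muscle markers, fast troponin-T-2, SERCA2a, muscle glycogen phosphorylase and myoD1c, 1 was called higher and 0 lower at 1 dpw, 1 and 2 at 3 dpw, 1 and 1 at 7 dpw, and 0 and 0 at 14 dpw. Their mean level was -0.37 to 0.54 in intact HFD skin and -0.28 to -0.08 in intact control skin, against -1.17 to 0.45 in HFD and -0.75 to 0.48 in control wounds at 14 dpw. How much muscle each biopsy held was not tested.

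**Figure D4:**
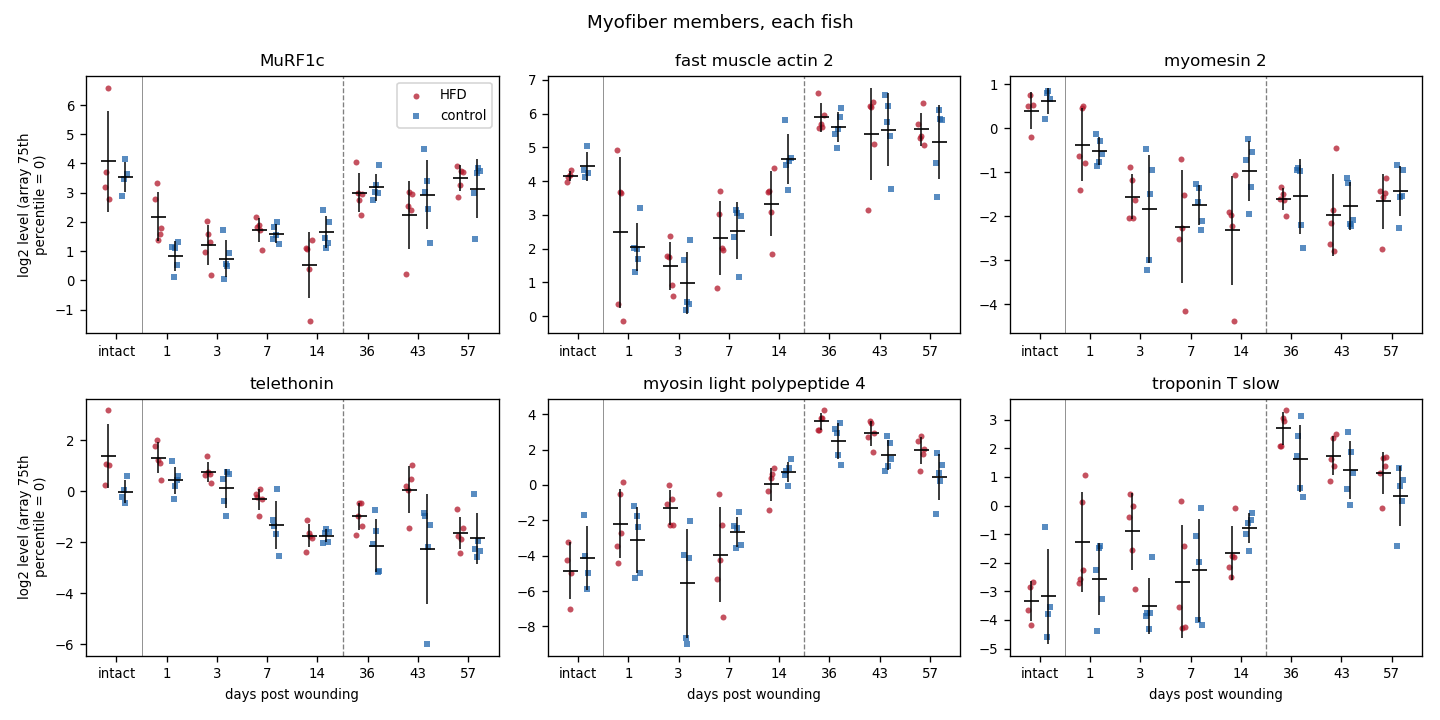
Levels of MuRF1c, fast muscle actin 2, myomesin 2, telethonin, myosin light polypeptide 4 and slow troponin T (log2 relative to the 75th percentile of the array) in each fish by day, HFD as circles on the left and control as squares on the right, with mean and SD as bars; the dashed line separates the scan campaigns. MuRF1c and myomesin 2 are lower in wounds up to 14 dpw, whereas myosin light polypeptide 4 rises at 14 dpw.

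From 1 to 3 dpw 11 of 37 members were called, 4 higher and 7 lower, against 14.6% of all probes (5.80% higher and 8.79% lower). Besides those named above, myomesin 2, calsequestrin, TBCC domain-containing 1, G12 and tubulin beta-2C were lower at 3 than at 1 dpw, by -1.24, -1.43, -1.69, -1.25 and -0.93, and FHL1 was higher by 1.37. Taxilin beta was called lower too (log2FC -0.81). Its call was lost after quantile normalization (-0.77), with normexp (-0.76) and in the authors' scaled table (-0.61). It was also lost without any one of 7 of the 20 fish. The call of tubulin beta-2C was lost in the authors' scaled table (-0.72). From 7 to 14 dpw 2 members were higher and 3 lower. The 14 other cytoskeletal probes, which are no members but include second probes of member genes, were also compared with intact skin. At 1, 3, 7 and 14 dpw 5, 7, 5 and 5 were called higher, against 11.7%, 14.3%, 11.2% and 10.6% of all probes. Called lower were 3, 3, 2 and 1, against 17.2%, 23.6%, 19.8% and 18.5%.

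In the late wounds 0 of 37 members were called between 57 and 36 dpw with limma, against 2.28% of all probes (0.524% higher and 1.76% lower). At an unadjusted p under 0.05 there were 10, of which 5 were higher and 5 lower. The share of all probes at that level was not counted, so these 10 cannot be read as an excess. An analysis of variance without shrinkage also called 0 and had 10 at that level, while a limma fit of the fish of these days alone called 2. The lowest adjusted p was that of moesin (log2FC -0.61, adjusted p = 0.012), whose change was below the fold threshold. Myosin light polypeptide 4 had values of -1.67, 1.42 and 2.75 at 57 dpw, against 1.12, 3.14 and 4.22 at 36 dpw (log2FC -1.84, adjusted p = 0.066). Slow troponin T had values of -1.41, 1.02 and 1.69 at 57 dpw, against 0.30, 2.26 and 3.33 at 36 dpw (log2FC -1.43, adjusted p = 0.075). The ranges of both genes overlapped between the days.

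The following differences between HFD and control chose the members and carry no test. By the study's criteria, a log2 ratio beyond 0.8 and an unadjusted p under 0.05, 6 members differed in intact skin (3 higher in HFD, 3 lower), while 1.81% of all probes did (1.50% higher, 0.304% lower). At 1 dpw 5 did (3 higher, 2 lower) against 3.45% (0.650% higher, 2.80% lower), and at 3 dpw 12 (11 higher, 1 lower) against 6.40% (3.38% higher, 3.01% lower). At 7 dpw 11 did (6 higher, 5 lower) against 4.34% (1.56% higher, 2.78% lower), and at 14 dpw 9 (2 higher, 7 lower) against 4.29% (2.21% higher, 2.08% lower). At 36, 43 and 57 dpw 2, 3 and 3 members differed, all higher in HFD, against 1.19%, 3.78% and 1.87% of all probes, of which 0.862%, 3.27% and 1.56% were higher and 0.332%, 0.509% and 0.312% lower. With slide as a block 2 members met the criteria at 43 dpw, 0 higher and 2 lower in HFD. At the threshold, the FHL1 ratio of 0.83 at 14 dpw was just inside and that of myosin-Ig at 0.76 just outside, and at 3 dpw Arp2-B at -0.83 was inside and gelsolin (a) at -0.66 outside.

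HFD and control fish did not overlap for 2 members in intact skin, 2 at 1 dpw, 2 at 3 dpw, 3 at 7 dpw, 1 at 14 dpw, 0 at 36 and 43 dpw and 2 at 57 dpw. The same held for 3.82%, 2.01%, 5.67%, 4.39%, 2.94%, 0.525%, 1.35% and 0.583% of all probes. Only probes with a value in every fish of the day were counted. These included 35, 37, 34, 35, 36, 37, 37 and 37 members, without pleckstrin at 3 dpw. The HFD fish were the higher ones in 2.09%, 0.604%, 2.86%, 2.09%, 1.38%, 0.382%, 1.04% and 0.347% of all probes and the lower ones in 1.73%, 1.41%, 2.82%, 2.30%, 1.56%, 0.143%, 0.310% and 0.237%. In intact skin the members without overlap were stathmin (HFD minus control -0.94) and tubulin alpha 8 like 2 (-0.83), both lower in HFD, and stathmin was at -0.62 without HFD fish 3. At 57 dpw they were pleckstrin (1.27) and filamin-A (0.85), both higher in HFD.

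At 1 dpw MuRF1c was 2.80, 3.31, 1.40, 1.58 and 1.80 in the 5 HFD fish, against 1.15, 0.11, 1.12, 0.53 and 1.30 in the 5 control fish. The means were 2.18 ± 0.84 and 0.84 ± 0.51 (SD, n = 5 each), and the highest control fish lay just under the lowest HFD fish. Maskin was -0.75, -0.80, -0.95, -0.58 and -0.69 in HFD fish, against 0.41, 0.00, 0.38, -0.27 and 0.18 in control fish, a difference of -0.89. Taxilin beta and telethonin, also of muscle, were higher in HFD by 1.29 and 0.89 with overlapping fish, and Arp2-B was lower (-0.95). In the pair of fish that shared a slide these differences were 1.58 for telethonin and -2.02 for Arp2-B. With slide as a random block over all fish they were 0.96 and -1.06. Among the muscle markers myoD1c was higher in HFD by 1.19 and SERCA2a was lower (-0.95).

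At 3 dpw all 4 actin regulators of blood cells were higher in HFD, by 0.95 to 1.57. Myosin-Ig was already 0.69 higher in HFD in intact skin, and its change from there was 3.63 in HFD and 3.35 in control. In intact skin coronin-1A (a) and (b) and pleckstrin were at -0.07, -0.12 and -0.11. Coronin-1A (b) was 3.50, 3.09, 2.62, 3.24 and 3.42 in HFD fish, against 1.60, 2.17, 2.26, 2.17 and 2.40 in control fish (3.17 ± 0.35 and 2.12 ± 0.30, SD). The groups did not overlap, and the difference was 1.05. At the same day 8 of the 9 phagocyte markers met the study's criteria, between 0.86 and 1.92 higher in HFD, and the part of phagocyte number in the difference was not tested. Septin-8 (1.08), TPPP3 (1.08), G12 (0.97), plectin 1 (0.96) and tubulin beta-2C (0.87) were higher in HFD too, Arp2-B (-0.83) was lower, and KIF4A was lower (-1.10). Of the 14 other cytoskeletal probes, KIF4A among them, 1 met the study's criteria as higher and 1 as lower in HFD. In the pair of fish that shared a slide the difference at 3 dpw was 0.46 for myosin-Ig, 0.45 for septin-8, 0.17 for G12 and -0.02 for Arp2-B. With slide as a random block over all fish these differences were 0.93, 1.05, 0.92 and -0.79.

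Myosin light polypeptide 4 was higher in HFD by 4.28 on the log2 scale at 3 dpw. Its levels were -1.10, -0.01, -2.27, -0.79 and -2.26 in HFD fish, against -3.98, -8.68, -9.00, -4.13 and -2.05 in control fish. In control it was well above background in 3 of 5 fish, and 1 control fish lay within the HFD range. The ratio was 1.97 with normexp, 0.95 in the pair of fish that shared a slide and 4.09 with slide as a random block. Slow troponin T was 2.60 higher in HFD, 1.39 in that pair of fish and 2.53 with slide as a random block.

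At 7 dpw members of actin assembly were mostly lower in HFD and the septins higher. Both gelsolins (-1.65 and -1.37), both thymosins (-0.90 and -0.82) and the espin-like probe (-2.26) were lower in HFD. In the pair of fish that shared a slide the gelsolins were at -1.42 and -1.16. There the thymosins were at -1.05 and -1.07 and the espin-like probe at -1.54. With slide as a random block over all fish 11 members met the study's criteria at 7 dpw, 6 higher and 5 lower in HFD. Moesin was -0.44, -0.78, -0.58, 0.07 and -0.16 in HFD fish, against -1.49, -1.61, -0.99, -1.39 and -1.71 in control fish, without overlap (-0.38 ± 0.34 and -1.44 ± 0.28, SD, difference 1.06). Septin-7 was -1.01 ± 0.31 in HFD and -2.06 ± 0.19 in control fish, and tropomodulin-3 was 2.38 ± 0.34 and 1.51 ± 0.23, again without overlap. Septin-8 was higher in HFD by 0.96 with overlapping fish, myosin-Ig by 0.84 and telethonin by 1.02. In the pair of fish that shared a slide these were 1.59, 1.39 and 2.43, and with slide as a random block 0.97, 0.85 and 1.04. Of the 8 epidermis markers, 1 was higher and 3 lower in HFD at this day.

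At 14 dpw 5 of the 10 muscle members were lower in HFD, namely calsequestrin (-1.72), myomesin 2 (-1.35), fast muscle actin 2 (-1.32), unc-45B (-1.19) and MuRF1c (-1.14). For fast muscle actin 2 the HFD fish had 3.67, 3.69, 3.08, 1.82 and 4.38, against 5.82, 4.47, 3.73, 4.59 and 4.67 in control fish. The fish overlapped for each of these 5 genes, and HFD fish 4 was the lowest of its group in all of them. Without it the difference was -0.83 for myomesin 2 and -0.66 for MuRF1c. That of unc-45B was -0.70 in the pair of fish that shared a slide and -1.20 with slide as a random block. None of the 4 muscle markers met the study's criteria at 14 dpw, while all 3 hemoglobin probes were lower in HFD (-1.12 to -0.90). Dystonin was lower in HFD (-1.11, and -2.19 in the pair of fish that shared a slide). Annexin A1 was the member without overlap, at 5.10, 4.89, 4.75, 6.47 and 5.74 in HFD fish, against 3.28, 3.90, 4.70, 4.68 and 4.31 in control fish (difference 1.22, and 0.79 in the pair that shared a slide).

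Among the late wounds myosin light polypeptide 4 was higher in HFD at 36, 43 and 57 dpw, by 1.12, 1.24 and 1.51, with overlapping fish each time. Its levels at 57 dpw were 2.46, 0.76, 2.75, 1.73 and 2.04 in HFD fish, against -1.67, 1.78, 0.70, 0.24 and 1.11 in control fish. Without control fish 1 the difference at 57 dpw was 0.99. Telethonin was higher in HFD at 36 dpw (1.14) and 43 dpw (2.33), and the value at 43 dpw was 1.40 without control fish 3 and 1.17 with normexp. At 57 dpw pleckstrin was -2.83, -2.08, -2.75, -2.64 and -1.34 in HFD fish, against -4.14, -3.29, -3.65, -3.36 and -3.55 in control fish. That difference of 1.27 was 0.48 with normexp.

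**Figure D5:**
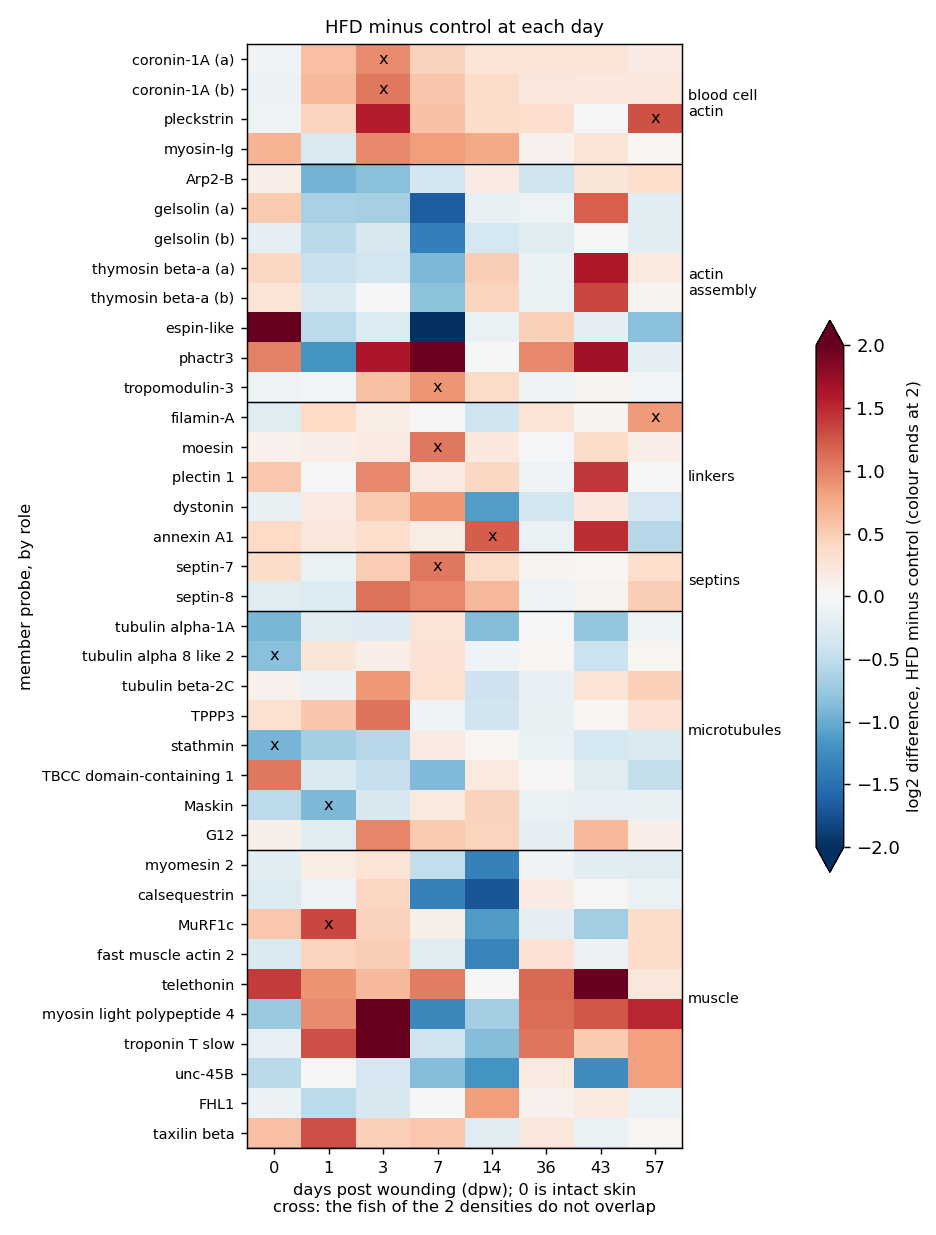
Heat map of HFD minus control (log2) of the 37 members, grouped by role, from intact skin (0 dpw) to 57 dpw. A cross marks groups that do not overlap. The actin regulators of blood cells are higher in HFD at 3 dpw, and 5 muscle members are lower in HFD at 14 dpw.

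Single fish set some of these values. Control fish 1 at 43 dpw, whose epidermis markers stood apart, had -5.39 for gelsolin (a), -2.12 for thymosin beta-a (a), -1.53 for annexin A1 and -5.18 for plectin 1. With and without it, HFD minus control at 43 dpw was 1.20 and -0.14 for gelsolin (a), 1.60 and 0.31 for thymosin beta-a (a), 1.47 and 0.38 for annexin A1, and 1.41 and 0.41 for plectin 1. HFD fish 3 of intact skin had the highest MuRF1c (6.59), telethonin (3.17) and espin-like level (0.98) of the 8 intact fish. Without it the difference in intact skin was 1.35 rather than 2.10 for the espin-like probe and 0.80 rather than 1.39 for telethonin, and 0 members met the study's criteria at 0 dpw in place of 6.

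Probes of one gene were compared through the deviations of the 78 fish from their group means, which do not enter the difference between densities. The 9 pairs computed were tested with two-sided permutation tests of 100000 resamples, which can give a p of 1e-05 at the smallest. The coronin-1A probes followed each other (Pearson's r = 0.967, Spearman's rho = 0.952), as did the thymosin beta-a probes (r = 0.983, rho = 0.943) and annexin A1 with its second probe (r = 0.987, rho = 0.976). Myosin-Ig and its second probe gave r = 0.755 and rho = 0.746, and the gelsolin probes r = 0.540 and rho = 0.555. Each of these 5 pairs reached that smallest permutation p for r and rho (adjusted p = 1.5e-05). Without the 2 fish farthest from the median r was 0.958 for coronin-1A, 0.947 for thymosin beta-a, 0.975 for annexin A1, 0.731 for myosin-Ig and 0.462 for gelsolin. Within the early and the late scan campaign r was 0.972 and 0.956 for coronin-1A, 0.942 and 0.991 for thymosin beta-a, 0.992 and 0.985 for annexin A1, 0.818 and 0.645 for myosin-Ig, and 0.349 and 0.710 for gelsolin.

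Taxilin beta and its second probe gave r = 0.151 (permutation p = 0.186, adjusted p = 0.209) and rho = 0.110 (permutation p = 0.338, adjusted p = 0.380), with r = -0.03 in the early and 0.402 in the late campaign and 0.051 without the 2 farthest fish. Coronin-1A (a) rose and fell between fish with ncf1 (b), an NADPH oxidase subunit of phagocytes (r = 0.584, rho = 0.591, permutation p = 1e-05 and adjusted p = 1.5e-05 for both). That r was 0.509 without the 2 farthest fish, 0.748 in the early and 0.343 in the late campaign. The pairs of muscle genes did not pass the test. Slow troponin T with fast troponin-T-2 gave r = 0.016 (permutation p = 0.888, adjusted p = 0.888) and rho = 0.083 (permutation p = 0.474, adjusted p = 0.474), and fast muscle actin 2 with fast troponin-T-2 gave r = 0.161 (permutation p = 0.158, adjusted p = 0.203) and rho = 0.202 (permutation p = 0.076, adjusted p = 0.098). Without the 2 farthest fish r was 0.024 and 0.129 for these pairs, and it was -0.02 and 0.166 in the early and 0.142 and 0.152 in the late campaign.

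Among the muscle members themselves the correlation of these deviations, given as a description over the same 78 fish, ran from -0.55 for unc-45B with FHL1 to 0.78 for myomesin 2 with calsequestrin, with a median of 0.16 over the 45 pairs. Myosin light polypeptide 4 and slow troponin T, the muscle members that rose by 14 dpw, had r = 0.78 with each other. MuRF1c and taxilin beta had r = 0.72. For the actin regulators of blood cells the 6 pairs ran from 0.43 to 0.97, and for the microtubule members the 28 pairs ran from -0.53 to 0.58.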

How the data were processed

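Levels were computed from the scanner files of 79 one-colour arrays. The deposited values are the processed signal intensity of each spot, which per the file headers was background-subtracted by Agilent Feature Extraction 12.0.1.1. The deposited flags (outlier, saturated, well above background) were used to leave out spots and dim probes. The authors also deposited a table of scaled intensity values, whose column totals lay between 99.8% and 100.1% of their mean, and it was used as an alternative. In it 9 of 79 columns matched the scan of another array, 8 of them at 1 dpw in the same group. Of 15377 spots, 536 control spots and outlier spots (12 of 2886 member values) were left out, log2 values were centred on the 75th percentile of the array, and the repeat arrays of a fish were averaged. Probes entered a test when well above background in as many fish as the smaller day held. Limma 3.58.1 in R 4.3.3 fitted 16 group means, and days were compared over both densities. Correlations used Python 3.11.15 and numpy 2.4.6. The tests were tried on simulated data.

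Genes were named from the study's supplementary list, and no sequences or coordinates are given. Full values are given for the 2 members with the largest rise and the 2 with the largest fall among those called at each day, for members highest and lowest in HFD among those without overlap, and for others by role. The members, roles and lists were chosen with earlier results of these data known. Alternatives were quantile normalization, normexp with an offset of 50, the authors' scaled table, other filters on dim probes, slide as a fixed or random block, the fish number as a block, fits of the fish of 2 days alone, analysis of variance, outlier spots kept (chosen after seeing the data), 1 of the repeat arrays, and each fish left out in turn. The number of arrays limits the precision. The p-values measure the spread between fish of one tank per density.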

Additional observations from a re-analysis of the deposited data

Results flagged for a closer look

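For 6 pairs of member and day, every HFD fish lay on the other side of its intact mean than every control fish did of its own. Such pairs were not counted over all probes, and the members were chosen on the difference between densities. Whether 6 is many or few can therefore not be said. This difference between the responses was not tested, and HFD and control shared no slide in intact skin, so slide cannot be told apart from density there. The values below are the change from intact skin in HFD minus that in control, on the log2 scale.

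The espin-like probe at 7 dpw gave -4.36, from a change of -1.21 in HFD and 3.15 in control. Its intact level was -3.22, -2.12, 0.98 and -0.62 in HFD fish, against -2.83, -2.95, -3.86 and -3.73 in control fish. Thymosin beta-a (a) at 7 dpw gave -1.32, from -0.95 in HFD and 0.36 in control. Stathmin at 14 dpw gave 0.98, from 0.70 in HFD and -0.28 in control. Tubulin alpha 8 like 2 gave 1.07 at 1 dpw (0.52 in HFD and -0.55 in control), 0.97 at 3 dpw (0.64 and -0.33) and 1.12 at 7 dpw (0.31 and -0.81). Its intact level of 5.52, 5.13, 4.65 and 5.48 in HFD fish, against 5.62, 6.28, 6.40 and 5.81 in control fish, enters all 3 of these values.

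No single fish stood apart by Dixon's test in the 60 groups of named members tested, where chance alone would give about 1 in 20. These groups were of intact skin and of wounds up to 14 dpw. Some of their members were named because HFD and control fish did not overlap, so the groups were not picked at random. Late wounds were not tested, so the result does not cover control fish 1 at 43 dpw. That fish had -2.12 for thymosin beta-a (a), against 3.95 to 4.90 in the other fish of that day.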

How the results depend on the processing

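No called change of a member reversed under any alternative. Of the recomputed calls 3282 stayed past the threshold and 131 did not, 72 of these with a fish left out, 18 with normexp and 16 in the authors' scaled table. The count from 7 to 14 dpw was 3 members with normexp. The count from 36 to 57 dpw was 1 after quantile normalization, 2 with normexp, 1 in the authors' scaled table and 2 in the fit of the fish of those days alone. HFD against control, the count past the study's criteria was 3 at 1 dpw with normexp. With slide as a fixed block, HFD minus control at 1, 3, 7 and 14 dpw is the difference within the pair of fish that shared a slide, so no count is given for these days. With that block the count was 1 at 36 dpw (1 higher and 0 lower in HFD), 2 at 43 dpw (0 higher and 2 lower) and 4 at 57 dpw (3 higher and 1 lower). No value with that block could be had at 0 dpw. Leaving out each fish in turn gave, against intact skin, 22 to 25 called members at 1 dpw, 25 to 27 at 3 dpw, 16 to 19 at 7 dpw and 16 to 18 at 14 dpw. Between days it gave 10 to 12 (3 versus 1 dpw), 9 to 13 (7 versus 3), 4 to 6 (14 versus 7) and 0 to 1 (57 versus 36, the 1 without control fish 2 at 57 dpw). HFD against control, in intact skin it gave 0 without HFD fish 3 to 8 without HFD fish 1, with 3 and 1 without control fish 6 and 7. At 1 dpw it gave 4 to 6, at 3 dpw 9 to 13, at 7 dpw 6 without HFD fish 4 to 14 without HFD fish 3, and at 14 dpw 3 without HFD fish 3 or control fish 1 to 11 without control fish 3. At 36 dpw it gave 0 without HFD fish 3 or 4 to 3 without HFD fish 1, and 1 without HFD fish 2 or 5 or control fish 1, 3 or 5, at 43 dpw 2 without HFD fish 1 to 4, and at 57 dpw 1 without HFD fish 1 to 5 without HFD fish 2. The cause of these shifts was not tested. With the fish number as a replicate block the counts were 17, 24, 16 and 13 at 1, 3, 7 and 14 dpw, then 11, 12, 5 and 0 between days. Fish were killed at sampling and the numbers do not pair them: over 35 pairs the correlation was -0.55 to 0.36 (median -0.05), and 6 samples correlated best with their own number. Signal near background limited myosin light polypeptide 4, Arp2-B, septin-8 and telethonin.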
